A study of Mus musculus with 8 samples.

Results

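Cytochrome c oxidase, or complex IV, and ATP synthase, or complex V, are the last enzymes of oxidative phosphorylation, and their nuclear genes were examined in mouse primordial follicles. The genes were chosen by symbol, as every gene listed whose symbol begins with Cox and a numeral of the cytochrome c oxidase series (Cox4 to Cox8 with a letter, or Cox10 to Cox19) or with Atp5. This gave 43 of 26586 genes, of which 25 belong to complex IV as subunits, a supercomplex factor or assembly factors, and 15 are subunits of complex V. The other 3 genes carry such a name without being part of either enzyme. They were Cox4nb, which GENCODE lists as Emc8 of the endoplasmic reticulum membrane complex, Atp5sl, which it lists as Dmac2, and Atp5s. The subunits encoded by mitochondrial DNA were not analysed here.

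Primordial follicles were isolated from C57Bl/6 x CBA ovaries on postnatal day 3. The control group was made up of 4 samples, whose origin the paper does not state for the sequencing. The paper's controls for litter size and follicle counts were colony animals. The mito-supplemented group was made up of 4 samples from third-generation offspring. These descended from founders whose oocytes had received mitochondria of egg precursor cells together with a spermatozoon at intracytoplasmic sperm injection. The comparison addresses whether gene expression differs generations after supplementation. Each sample was a small pool of follicles freed from an ovary by enzyme digestion, the RNA was amplified before sequencing, and rRNA was removed from the libraries. No control descended from injected oocytes is described for the sequencing, so that supplementation and injection cannot be told apart. The codes in the sample labels begin alike for control replicates 1 and 2, for control replicates 3 and 4 and for mito-supplemented replicates 1 to 3, and differently for mito-supplemented replicate 4. Whether they mark animals or litters is not stated, so that the p values measure the spread between these samples.

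In the respiratory chain, complex IV takes electrons from cytochrome c and passes them to oxygen while it moves protons across the inner mitochondrial membrane. Complex V lets the protons return through a ring of c subunits, whose rotation drives ATP synthesis in the F1 head. Several nuclear subunits of complex IV exist as isoforms that differ between tissues, such as the heart and skeletal muscle forms Cox6a2, Cox7a1 and Cox8b, the lung form Cox4i2 and the testis forms Cox6b2, Cox7b2 and Cox8c, whereas the c ring is encoded by 3 genes, Atp5g1, Atp5g2 and Atp5g3, that yield the same mature protein. Oocytes depend on oxidative phosphorylation for most of their ATP.

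Depth was 17658559, 13917412, 18219362 and 10370045 counts in control replicates 1 to 4. Mito-supplemented replicates 1 to 4 held 19760763, 13370911, 16116434 and 13276462 counts. Without the mitochondrial rRNA symbols Rnr1 and Rnr2, which took between 14.9% and 74.0% of a library, control replicate 4 held 2694475 counts and was the shallowest library. Its limit for a count of 0, taken as 3 counts, was 0.592 CPM (counts scaled to 1000000 per library), against 0.123 to 0.238 CPM in the other 7 libraries. Levels are given below in CPM after TMM scaling, and differences as the log2 fold change of mito-supplemented over control samples. Each direction rests on the sample labels alone, which no gene in the counts can check. Read by eye, the colour legend of the study's heat map appears to run opposite to these labels, though the study's text states no doubt. Every sign given below therefore holds only if the labels are right. Amplified reads are not independent molecules, and every count interval or limit given covers counting error alone.

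The label of primordial follicles was checked against marker genes of the oocyte and of other ovarian cells. All 15 oocyte markers had counts, Nlrp5 being the most abundant, and their summed level was 3700, 202, 181 and 662 CPM in control replicates 1 to 4. In mito-supplemented replicates 1 to 4 it was 309, 200, 785 and 125 CPM. Control replicate 1 therefore stood above all other libraries in oocyte transcripts. All 9 pregranulosa and granulosa markers had counts, led by Wt1, with sums of 214, 140, 221 and 643 CPM in controls, against 340, 839, 616 and 902 CPM in the mito-supplemented libraries. These markers differed among themselves, with log2 fold changes of -0.40 for Kitl, 0 for Nr5a2, 0.43 for Inha, 0.56 for Foxl2, 0.96 for Fst, 1.37 for Wt1 and 2.44 for Lgr5. All 7 stroma markers had counts, led by Col3a1, with sums of 327, 436, 619 and 2140 CPM in controls, against 938, 965, 2390 and 2090 CPM in the mito-supplemented libraries. Transcripts of cells other than follicle cells were thus present in every library, and fewer cells of a type cannot be told apart from less RNA per cell in any result below.

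Markers of further cell types varied between the libraries. The 5 endothelial markers, led by Kdr, summed to 23.5, 26.8, 36.4 and 190 CPM in controls, against 95.9, 221, 151 and 192 CPM in the mito-supplemented libraries. The 7 surface epithelium markers, led by Upk3b, summed to 59.3, 28.8, 27.1 and 259 CPM in controls, against 211, 568, 235 and 479 CPM in the mito-supplemented libraries. Mito-supplemented samples were at the high end of both lists, together with control replicate 4. The median log2 fold change was 1.87 over the 7 surface epithelium markers and 1.35 over the 5 endothelial markers, whereas it was -1.80 over the 13 oocyte markers tested. For the oocyte markers, control replicate 1 stood apart, and the sums of the other 3 controls lay within the range of the mito-supplemented libraries. Of the 7 red cell markers, 6 were listed, led by Slc4a1, and they summed to 13.4, 3620, 2400 and 41.4 CPM in controls, against 4530, 73.1, 20.3 and 19.6 CPM in the mito-supplemented libraries. The 5 immune markers, led by Lyz2, summed to 7.43, 129, 113 and 21.1 CPM in controls, against 724, 11.2, 15.1 and 8.55 CPM in the mito-supplemented libraries. The red cell and immune sums were thus high in the same 3 libraries, control replicates 2 and 3 and mito-supplemented replicate 1. Of the immune markers this holds for Lyz2 and Ptprc, while Cd68 was at 1.5 CPM in mito-supplemented replicate 1 and Csf1r at 1.82 CPM in control replicate 2, below several other libraries. The 6 smooth muscle and pericyte markers, led by Myh11, summed to 27.9, 21.2, 49.4 and 230 CPM in controls, against 43.7, 75.1, 89.5 and 324 CPM in the mito-supplemented libraries.

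The sequences upstream of 4 genes are shown, since Cox7a1 and Cox7a2 are the muscle and the general isoform of a subunit that is described below, Atp5b had the highest level per length of complex V, and Atp5k was among the genes with separated groups. They are from RefSeq (GRCm38.p6), in the direction of transcription, and run from 250 bases before the start site to the last base before an annotated exon. The motifs searched on both strands were CCGGAAG of ETS factors, GCGCATGC of the core of the NRF1 motif, AAGATGGC of YY1, the GC box GGGCGG and the TATA box TATAAA. Matches are in capitals.
Cox7a1 (chr7:30183921-30184143, plus strand): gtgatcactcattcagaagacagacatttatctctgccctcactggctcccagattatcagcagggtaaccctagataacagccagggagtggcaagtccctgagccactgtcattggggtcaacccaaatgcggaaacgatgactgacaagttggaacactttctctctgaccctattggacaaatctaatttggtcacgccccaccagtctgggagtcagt
Cox7a2 (chr9:79759879-79760103, minus strand): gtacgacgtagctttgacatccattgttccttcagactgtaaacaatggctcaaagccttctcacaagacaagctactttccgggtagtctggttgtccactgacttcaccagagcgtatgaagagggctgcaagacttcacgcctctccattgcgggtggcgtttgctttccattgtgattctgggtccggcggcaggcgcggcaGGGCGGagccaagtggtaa
Atp5b (chr10:128083057-128083272, plus strand): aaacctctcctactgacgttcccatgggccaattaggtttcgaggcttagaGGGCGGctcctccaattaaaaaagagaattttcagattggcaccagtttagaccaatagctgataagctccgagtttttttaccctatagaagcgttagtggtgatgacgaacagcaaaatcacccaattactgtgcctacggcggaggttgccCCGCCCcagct
Atp5k (chr5:108434449-108434649, minus strand): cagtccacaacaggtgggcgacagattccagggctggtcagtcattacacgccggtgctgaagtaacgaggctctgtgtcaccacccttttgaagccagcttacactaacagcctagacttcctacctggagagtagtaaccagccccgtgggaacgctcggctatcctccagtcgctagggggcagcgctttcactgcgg
In the full 250 bases, Cox7a1 held 0 matches and 4 CpG dinucleotides, while Cox7a2 held 1 GC box and 14 CpG. Atp5b held 2 GC boxes and 14 CpG. Atp5k held the NRF1 core on both strands, in overlapping matches among the bases not shown, and 13 CpG. The median over all 32851 promoters in the table was 6 CpG.

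Promoters were found for 32 of the 43 genes. The ETS motif was in 8 of the 32, against 6.91% of all promoters of the same length, and the NRF1 core in 4, against 2.26%. The YY1 motif was in 2, against 1.56%. The GC box was in 13, against 32.7%, and the TATA box in 3, against 12.4%. Within the complexes, the NRF1 core was in 1 of 18 complex IV genes with a promoter and 3 of 13 of complex V. The counts are of genes, of which 5 have 2 promoters in the table, and the percentages are of promoters. These matches describe the letters present and were not set against expression.

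None of the genes chosen by symbol passed the correction for multiple tests. The filter on low counts kept 38 of the 43 genes, namely 20 of 25 for complex IV, 15 of 15 for complex V and the 3 others, and it left out Cox4i2, Cox6a2, Cox7b2, Cox8b and Cox8c. With p values of edgeR's quasi-likelihood test adjusted over 13873 genes by the Benjamini-Hochberg method, 0 of the 38 were under 0.05, as were 0% of all genes tested. By edgeR's likelihood ratio test, 0 of the 38 passed at 2-fold, against 0.418% of all genes, and by DESeq2 0 of the 38 passed, against 1.03% of the 13657 genes to which it gave an adjusted p value. At an unadjusted p value under 0.05 in the quasi-likelihood test, 1 gene was higher, Cox7a1, against 5.31% of all genes, and 0 were lower, against 2.40%. Every mito-supplemented library was above every control library for 1 gene, Cox7a1, against 3.00% of all genes, and below every control library for 2, Atp5a1 and Atp5k, against 2.03%. With 38 genes, counts of 0 to 2 do not set the complexes apart from all genes tested.

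The median log2 fold change was -0.32 over the 20 complex IV genes and -0.23 over the 15 complex V genes, against -0.10 over all genes tested. The difference between the complexes was thus -0.09. Of the 35 genes, 25 (71.4%) were below 0, against 55.1% of all genes tested, that is 15 of 20 for complex IV and 10 of 15 for complex V. The share was 84.2% over the further complex IV genes described below, 80% over complex I, 62.5% over complex III and 33.3% over complex II. With scaling by library size only, 20 of the 35 complex IV and complex V genes were below 0, and the median was -0.13 for complex IV and 0.04 for complex V. Library size includes Rnr1 and Rnr2, at 74% of control replicate 4, where the TMM factor was 0.489. Every level in that library is therefore lower by library size only than after TMM scaling. That scaling moved the median of all genes by 0.27, and it changed the sign of the complex V median, while the complex IV median and the difference between the complexes, at -0.17, stayed below 0. Without control replicate 1 the median of complex IV was 0.05 and the difference between the complexes 0.24, with 17 of 35 genes below 0, and without mito-supplemented replicate 1 that difference was 0.03. The median 95% interval reached 1.09 to either side of the log2 fold change for complex IV genes and 0.82 for complex V genes, against 1.45 over all genes tested. For a gene at that median, a smaller difference had an unadjusted p value above 0.05. Passing the correction for multiple tests would need a larger difference than that. The standard deviation of log2 CPM over the 8 libraries had a median of 0.67 for complex IV and 0.40 for complex V, against 0.98 over all genes, and it varies with the level of a gene.

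**Figure D1:**
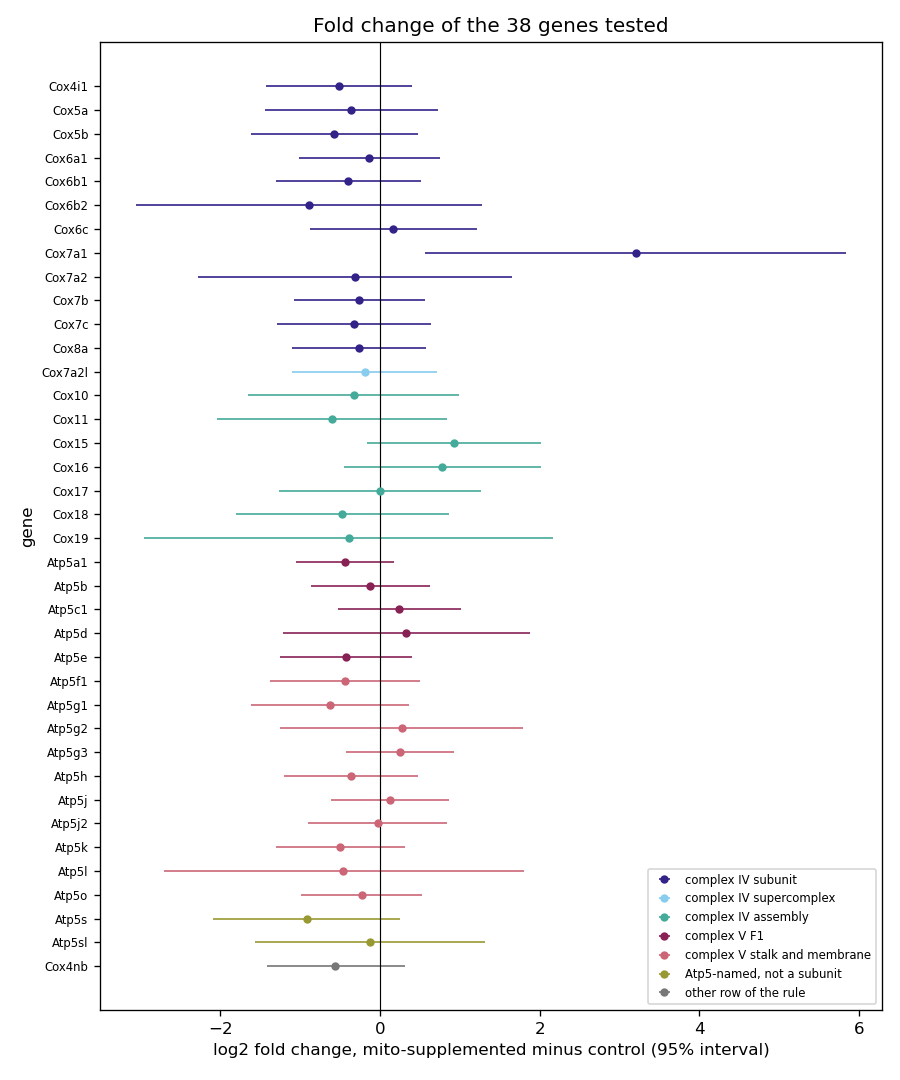
Log2 fold change of mito-supplemented over control samples (horizontal axis) for the 38 genes tested, coloured by role, with points for the estimate and lines for the 95% interval from the quasi-likelihood fit (n = 4 libraries per group). The interval of Cox7a1, from 0.56 to 5.84, lies above 0, and those of the other 37 genes include 0.

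The general forms of the nuclear subunits described here were present in every library. Cox4i1 (chromosome 8, 120668222 to 120674207 of GRCm38), the regulatory subunit that binds ATP, was at 103, 53.4, 41.2 and 33.0 CPM in control replicates 1 to 4. In mito-supplemented replicates 1 to 4 it was at 52.9, 34.4, 37.9 and 36.2 CPM. Control replicate 1 was highest and the groups overlapped. Its log2 fold change was -0.51 (standard error, SE, 0.41, edgeR quasi-likelihood adjusted p = 0.746), and -0.06 without control replicate 1. Its first exon overlaps that of Cox4nb on the other strand, and the strand setting of the counting is not given in the sources used here. Cox6a1, the highest complex IV gene per length, was at 147, 103, 88.4 and 45.4 CPM in controls, against 112, 59.8, 77.9 and 100 CPM in the mito-supplemented libraries, in overlapping ranges. Its log2 fold change was -0.14 (SE 0.40), and 0.17 without control replicate 1. Cox5a, which binds the matrix side of the enzyme, had a log2 fold change of -0.36, and Cox5b, which binds zinc, of -0.57. For Cox5a, control replicate 1 stood apart at 71.8 CPM, against 18.6 to 24 CPM in the other controls and 19.8 to 33 CPM in the mito-supplemented libraries. Cox6c and Cox7c, small subunits of the membrane part, had log2 fold changes of 0.16 and -0.32. Cox6c was at 72.5 CPM in control replicate 1 and 71.7 CPM in mito-supplemented replicate 4, against 24.3 to 38.6 CPM elsewhere. Cox7c was at 52.5 CPM in control replicate 1, against 20.1 to 26.4 CPM in the other controls and 13.4 to 31.7 CPM in the mito-supplemented libraries. Cox8a, also a small subunit of the membrane part, was at 26.0, 21.9, 24.4 and 36.5 CPM in controls, against 30.0, 14.0, 21.4 and 25.4 CPM in the mito-supplemented libraries, with overlap and a log2 fold change of -0.26, which was 0.09 with scaling by library size only and -0.07 without control replicate 4. Cox7b, an X-linked subunit, was at 89.3, 36.5, 67.7 and 42.6 CPM in controls, against 59.0, 39.3, 49.6 and 49.1 CPM in the mito-supplemented libraries, and its groups overlapped. The log2 fold change of Cox7b was -0.26, but 0.03 without control replicate 1 and 0.01 with an offset for gene length and GC content.

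Cox7a1 (chromosome 7, 30184144 to 30186078 of GRCm38, plus strand), the heart and skeletal muscle form of subunit VIIa, had 1, 8, 3 and 0 counts in control replicates 1 to 4, or 0.041, 0.634, 0.172 and 0 CPM. In mito-supplemented replicates 1 to 4 it had 14, 54, 40 and 30 counts, or 0.679, 3.74, 1.81 and 2.09 CPM. All mito-supplemented libraries were above all control libraries, yet mito-supplemented replicate 1 was close to control replicate 2, whose exact Poisson 95% intervals were 0.371 to 1.14 and 0.274 to 1.25 CPM. Control replicate 4, the shallowest library, had 0 counts, and its limit of 0.592 CPM lies within the interval of mito-supplemented replicate 1, so that their order was not resolved at this depth. The mean was 0.212 ± 0.291 CPM for controls and 2.08 ± 1.26 CPM for the mito-supplemented group (SD, n = 4 each), and the separation had p = 0.0286 in a two-sided exact permutation test, the smallest value that 4 against 4 libraries allow. The expression filter, which needs a minimum level in 4 libraries, passed Cox7a1 through the mito-supplemented group alone. At its control levels Cox7a1 was tested under this filter only because that group was higher, and the p values given for it are no independent support. The log2 fold change was 3.20 (SE 1.19, 95% interval 0.56 to 5.84), with an unadjusted p value of 0.0221 and an adjusted p value of 0.626 in edgeR's quasi-likelihood test, 0.226 in its likelihood ratio test and 0.218 in DESeq2. It failed the correction in every alternative that tested it, with adjusted p values of those methods from 0.218 to 0.971. Its unadjusted p value was no longer under 0.05 without control replicate 3 (log2 fold change 3.09) or mito-supplemented replicate 2 (2.77), or with counts summed over samples whose codes begin alike (3.44), and it did not pass the filter once mito-supplemented replicate 3 was left out.

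The striated muscle markers differed among themselves. All 7 striated muscle markers had counts, and they summed to 8640, 1450, 698 and 5300 CPM in controls, against 810, 2470, 1620 and 81.3 CPM in the mito-supplemented libraries. The most abundant was Ttn, at 8630 CPM in control replicate 1 and 692 CPM in control replicate 3. Ckm, the creatine kinase of muscle, was at or below 0.291 CPM in every library, and Actn2 at or below 1.39 CPM. Tnni3, a troponin of heart muscle, was at 9.48, 2.22, 3.66 and 4.93 CPM in controls, against 5.09, 4.16, 14.9 and 20 CPM in the mito-supplemented libraries. Myh6 and Tnnt2 were at or below 2.36 CPM in every library. Over the 3 striated muscle markers tested the log2 fold change was -1.71 for Ttn, 0.25 for Myh7 and 1.12 for Tnni3, with a median of 0.25, and their part in the level of Cox7a1 was not tested. The muscle subunit Cox6a2 had 3 counts in mito-supplemented replicate 3 and 0 in the other 7 libraries, and Cox8b had 2 counts in control replicate 1 and 0 in the other 7. Both groups were thus at or under the limit of 3 counts for these muscle forms, and no fold is given. The endothelial and surface epithelium sums were highest in mito-supplemented replicate 2, as Cox7a1 was, and they were also high in control replicate 4, where Cox7a1 had 0 counts. In control replicate 4, Krt7, Krt8, Krt18, Krt19, Msln and Upk3b were at 20.7 to 92 CPM, and Upk1b alone of that list was low, at 0.79 CPM. Of the endothelial markers, Kdr was at 148 CPM there, Cdh5 at 22.7 and Pecam1 at 18.2 CPM, while Esam was at 1.38 CPM and Tie1 at 0. Upk1b and Esam had the largest log2 fold changes of their lists, at 5.07 and 3.33. In the mito-supplemented libraries Upk1b was at 23.9 to 134 CPM and Esam at 3.2 to 13.9 CPM. The smooth muscle and pericyte sum was highest in mito-supplemented replicate 4. The part of these cells in the level of Cox7a1 was not tested.

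The general form Cox7a2 was at 1.15, 0.793, 0.915 and 0.197 CPM in controls, against 0.582, 0.970, 0.681 and 0.278 CPM in the mito-supplemented libraries. The groups overlapped, with a log2 fold change of -0.31 (SE 0.88), which was -0.04 without control replicate 1 or without replicate 4 of the mito-supplemented group and -0.58 without control replicate 4. The related Cox7a2l, which joins complexes III and IV in supercomplexes, was at 25.1, 17.4, 16.2 and 10.7 CPM in controls, against 14.4, 13.6, 18.7 and 14.3 CPM in the mito-supplemented libraries, and took 90.1% of the counts of the 3 genes over all libraries. Its share was lowest in mito-supplemented replicate 2, at 74.2% (exact Clopper-Pearson 95% interval 68.5 to 79.4%), and highest in control replicate 4, at 98.2% (90.3 to 100%). The share of Cox7a1 was at most 3.36% in controls (replicate 2, 1.46 to 6.52%), and in the mito-supplemented libraries it ran from 4.35% (replicate 1, 2.40 to 7.19%) to 20.5% (replicate 2, 15.8 to 25.8%). For Cox7a2l the groups overlapped, with a log2 fold change of -0.19 (SE 0.41). Per length, the mean level of Cox7a1 was 0.539 CPM per kb in controls and 5.29 in mito-supplemented samples, while Cox7a2 was at 1.16 and 0.952 and Cox7a2l at 15.8 and 13.8 CPM per kb.

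**Figure D2:**
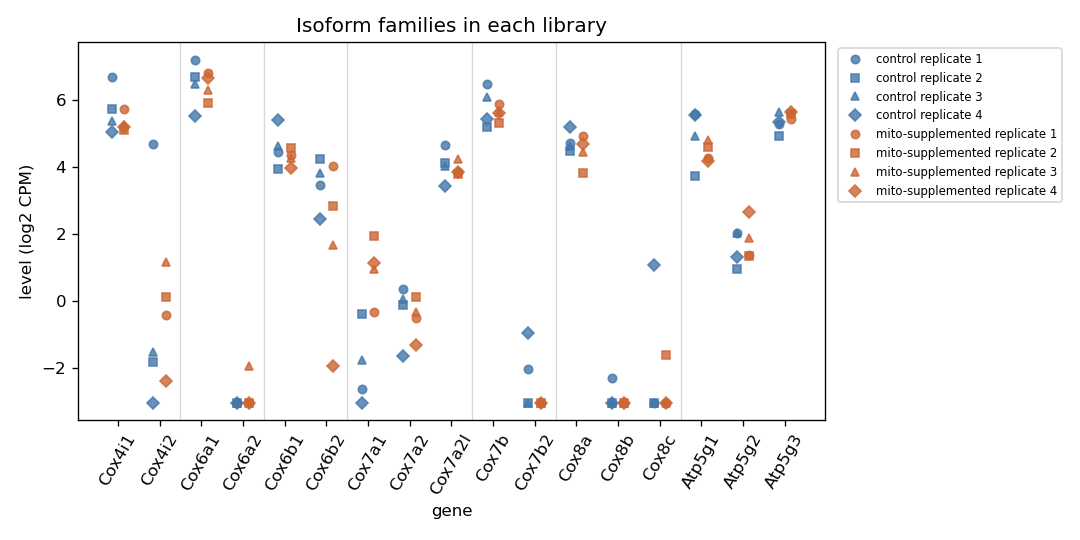
Level of each gene of the isoform families (log2 CPM, with a prior count of 2) in each of the 8 libraries, controls in blue and mito-supplemented in orange, with a marker shape for each replicate number. Cox7a1 was higher in all 4 mito-supplemented libraries, Cox4i2 stood out in control replicate 1 at 4.69, and points at -3.03 are counts of 0.

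Cox4i2, the lung form of subunit IV, which is induced by low oxygen in other tissues, had 626 counts in control replicate 1 and 2, 4 and 0 counts in control replicates 2 to 4. In mito-supplemented replicates 1 to 4 it had 13, 14, 47 and 1 counts. At 25.7 CPM (exact Poisson 95% interval 23.7 to 27.8) control replicate 1 stood far above the other 7 libraries, which were at or below 2.13 CPM. In that library Cox4i2 made up 20% of the counts of Cox4i1 and Cox4i2 together (exact Clopper-Pearson 95% interval 18.6 to 21.4%), and in the other 7 at most 5.32% (3.94 to 7.02%). Cox4i2 did not pass the expression filter, and by the exact permutation test, two-sided, its groups had p = 1. Control replicate 1 was also the library with the highest oocyte and striated muscle marker sums, at 3700 and 8640 CPM. Of the striated muscle sum 8630 CPM were Ttn, while Ckm, Myh6 and Tnnt2 were at 0 there. Mito-supplemented replicate 3, with the next highest Cox4i2 level, had the next highest oocyte marker sum at 785 CPM, but control replicate 4, at 662 CPM, had 0 counts of Cox4i2. The part of these cells in the level of Cox4i2 was not tested.

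Cox6b2, the testis form of subunit VIb, was expressed beside the general form Cox6b1. Cox6b2 (chromosome 7, 4751792 to 4753094 of GRCm38, minus strand) was at 11, 18.8, 13.9 and 5.33 CPM in controls, against 16.3, 6.99, 3.04 and 0.139 CPM in the mito-supplemented libraries. The groups overlapped, control replicate 2 being the highest library and mito-supplemented replicate 4, with 2 counts and a label code beginning of its own, the lowest. For Cox6b2 the log2 fold change was -0.89 (SE 0.98, edgeR quasi-likelihood adjusted p = 0.803), and leaving out mito-supplemented replicate 4 gave -0.46 and leaving out mito-supplemented replicate 1 gave -1.84. Cox6b1 was at 21.7, 15.3, 24.3 and 42.2 CPM in controls, against 20.5, 23.3, 19.3 and 15.4 CPM in the mito-supplemented libraries, also with overlap. Cox6b2 made up 55.1% of the counts of both genes in control replicate 2 (exact Clopper-Pearson 95% interval 50.3 to 59.9%) and 44.3% in mito-supplemented replicate 1 (40.7 to 47.9%). It made up 11.2% in control replicate 4 (7.51 to 15.9%) and 0.893% in mito-supplemented replicate 4 (0.108 to 3.19%). The libraries with the largest shares, control replicates 2 and 3 and mito-supplemented replicate 1, were also those with the highest red cell and immune marker sums. Control replicate 3 was at 36.4% (32.7 to 40.2%), and control replicate 1 followed with 33.6% (30.3 to 37.0%), so that their order was not resolved. In control replicate 1 the red cell and immune sums were 13.4 and 7.43 CPM. The part of these cells in the share was not tested.

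The remaining testis forms were close to absent. Cox7b2 had 3 counts in control replicate 1, 2 in control replicate 4 and 0 in the other 6 libraries. Cox8c had 10 counts in control replicate 4, or 1.97 CPM (exact Poisson 95% interval 0.946 to 3.63), 3 in mito-supplemented replicate 2 and 0 in the other 6. Cox8a therefore held 99.5% of the counts of Cox8a, Cox8b and Cox8c over all libraries, and Cox7b 99.9% of those of Cox7b and Cox7b2.

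The 7 assembly factors of complex IV had a median log2 fold change of -0.33, and 4 of them were below 0. Cox15, which makes heme A, was at 20.1, 22.4, 25.6 and 27.6 CPM in controls, against 30.5, 25.7, 27.8 and 98.4 CPM in the mito-supplemented libraries. Mito-supplemented replicate 4, which has a label code beginning of its own, was far above every other library, and mito-supplemented replicate 2 lay below control replicate 4. The log2 fold change of Cox15 was 0.93 (SE 0.49, edgeR quasi-likelihood adjusted p = 0.669), and 0.26 without mito-supplemented replicate 4. Scaled by library size only, its groups no longer overlapped and its unadjusted p value was under 0.05. Its exons overlap those of Cutc and Entpd7. Cox10, which acts before Cox15 in making heme A, was highest in control replicate 1 at 43.1 CPM, against 9.14 to 29.3 CPM in the other 7 libraries, with a log2 fold change of -0.33. Cox11 and Cox17, copper carriers, had log2 fold changes of -0.60 and 0.00, and Cox16, Cox18 and Cox19 of 0.78, -0.47 and -0.39. Cox16 was at 30.3 CPM in mito-supplemented replicate 4, against 4.14 to 15.4 CPM in the other libraries. Cox18 was highest in control replicate 1 at 16.7 CPM, followed by mito-supplemented replicate 4 at 13.7 CPM. Cox19 was at 5.09 CPM in control replicate 1 and 0 CPM in mito-supplemented replicate 4, against 1.11 to 3.39 CPM in the other libraries. Cox16 shares 88.5% of its 75-base windows with the transcript listed as Gm20498, and its counts are uncertain.

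The F1 head of complex V holds the catalytic sites. Atp5a1 (chromosome 18, 77773729 to 77782869 of GRCm38), its alpha subunit, was at 262, 271, 325 and 311 CPM in control replicates 1 to 4. In mito-supplemented replicates 1 to 4 it was at 255, 221, 170 and 217 CPM. All 4 mito-supplemented libraries were below all 4 controls, with 255 CPM against 262 CPM at the closest point. Its exons overlap those of Haus1, and its counts are to that extent uncertain. The mean was 292 ± 30.3 CPM for controls and 216 ± 35.1 CPM for the mito-supplemented group (SD, n = 4 each; two-sided exact permutation p = 0.0286). Its log2 fold change was -0.44 (SE 0.27, 95% interval -1.05 to 0.17, edgeR quasi-likelihood adjusted p = 0.705). Scaled by library size only, the groups overlapped (two-sided exact permutation p = 0.857) and the log2 fold change was -0.14. As given above, that scaling lowers the levels of control replicate 4.

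Atp5b, the beta subunit, which carries the catalytic residues, had overlapping groups. It was at 436, 526, 704 and 502 CPM in controls, against 735, 355, 399 and 505 CPM in the mito-supplemented libraries. The highest library was mito-supplemented replicate 1 and the lowest mito-supplemented replicate 2, both in the same group. For Atp5b the log2 fold change was -0.12 (SE 0.33, 95% interval -0.86 to 0.62), and it was 0.17 with scaling by library size only. The difference between Atp5a1 and Atp5b was not tested. Atp5c1, the central shaft, had a log2 fold change of 0.24, and Atp5d and Atp5e, which sit at its foot, of 0.33 and -0.43. Atp5d was measured at 1.97 to 8.98 CPM, and its exons overlap those of Cbarp.

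Atp5k (chromosome 5, 108433244 to 108434448 of GRCm38, minus strand), the e subunit of the membrane part, which takes part in dimer formation, was at 20.9, 19.9, 19.8 and 24.5 CPM in controls. In mito-supplemented samples it was at 18.2, 12.6, 12.2 and 17.3 CPM. The groups did not overlap, and replicate 1 of the mito-supplemented libraries came closest to the controls. The mean was 21.3 ± 2.18 CPM for controls and 15.1 ± 3.13 CPM for the mito-supplemented group (SD, n = 4 each; two-sided exact permutation p = 0.0286), and the log2 fold change was -0.50 (SE 0.36, edgeR quasi-likelihood adjusted p = 0.733). Scaled by library size only, which lowers the levels of control replicate 4, the groups overlapped (two-sided exact permutation p = 0.686) and the log2 fold change was -0.20. Of its 75-base windows 0% were found in other genes.

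Of the c ring genes, Atp5g3 was the most abundant per mean transcript length, at 60.6 CPM per kb, followed by Atp5g1 at 10.7 and Atp5g2 at 4.58. The size of the gap between Atp5g3 and Atp5g1 depends on the length taken. The mean length of Atp5g1, 2655.5 bases, includes a transcript of 4715 bases, against a mean of 718.5 for Atp5g3. In CPM, Atp5g1 was above Atp5g3 in control replicates 1 and 4. Atp5g3 was at 38.8, 30.4, 49.4 and 40.3 CPM in controls, against 42.6, 47.9, 48.9 and 49.9 CPM in the mito-supplemented libraries, and was the least variable of the 43 genes in log2 CPM, with a standard deviation of 0.25 over the 8 libraries. The groups overlapped, with a log2 fold change of 0.25 (SE 0.31). Atp5g1 was at 47.7, 13.2, 30.4 and 46.4 CPM in controls, against 19.2, 24.1, 27.7 and 17.9 CPM in the mito-supplemented libraries. Control replicate 2 was the lowest of all libraries for Atp5g1 and the other 3 controls were the highest. The log2 fold change of Atp5g1 was -0.63 (SE 0.45, edgeR quasi-likelihood adjusted p = 0.723), and without control replicate 2 it was -0.90 with an unadjusted p value under 0.05, the only such call of a complex V gene in any alternative run. Of the counts of the c ring genes, Atp5g1 took from 29.0% (control replicate 2, exact Clopper-Pearson 95% interval 25.3 to 32.9%) to 52.7% (control replicate 1, 50.6 to 54.8%) in controls. In the mito-supplemented libraries it took from 24.2% (replicate 4, 21.6 to 26.9%) to 34.6% (replicate 3, 32.3 to 36.8%), so that the groups overlapped. Atp5g2 was at 3.94, 1.82, 4.00 and 2.37 CPM in controls, against 2.47, 2.42, 3.58 and 6.19 CPM in the mito-supplemented libraries. Its groups overlapped, and 86.9% of its windows occur in the annotated pseudogenes Gm10175 and Gm10231, so that its share of the ring is uncertain.

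The other subunits of the stalks and the membrane part had log2 fold changes from -0.46 to 0.12. Those of the peripheral stalk were Atp5f1, Atp5h, Atp5j and Atp5o, with values of -0.44, -0.36, 0.12 and -0.23. Atp5j2 of the membrane part was at -0.03. Atp5l, another membrane subunit, had 37, 19, 29 and 0 counts in controls and 14, 14, 19 and 14 counts in mito-supplemented samples, with overlapping groups. The fitted log2 fold change was -0.46, leaving out control replicate 4 gave -0.82, and the difference in mean log2 CPM had the other sign, at 0.17. Of its windows 76.0% occur in 10 other genes, 9 of them annotated pseudogenes. Of the 3 genes that carry a name of the series only, Atp5s was at 5.5, 8.25, 13.4 and 7.70 CPM in controls, against 4.22, 4.57, 3.95 and 5.63 CPM in the mito-supplemented libraries, overlapping only between control replicate 1 and mito-supplemented replicate 4 (two-sided exact permutation p = 0.0571), with a log2 fold change of -0.92 (SE 0.53, edgeR quasi-likelihood adjusted p = 0.681). Atp5sl and Cox4nb had log2 fold changes of -0.12 and -0.56.

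Summed over its 25 genes, complex IV was at 782, 437, 472 and 370 CPM in control replicates 1 to 4 and at 512, 339, 406 and 587 CPM in mito-supplemented replicates 1 to 4. Complex V summed to 1190, 1190, 1520 and 1240 CPM in controls, against 1430, 914, 952 and 1210 CPM in the mito-supplemented libraries. The groups overlapped for both sums. The ratio of complex IV to complex V counts, which does not depend on the scaling between libraries, was 0.659, 0.366, 0.310 and 0.299 in controls and 0.359, 0.371, 0.426 and 0.487 in mito-supplemented samples. The means were close, at 0.409 ± 0.170 and 0.411 ± 0.0586 (SD, n = 4 each), but this rests on control replicate 1, the highest library. Control replicates 3 and 4 were below every mito-supplemented library, and control replicate 2 was above mito-supplemented replicate 1 alone. For control replicate 1 the exact Clopper-Pearson 95% interval was 0.647 to 0.671. No test was made of these sums, which are dominated by the most abundant genes.

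**Figure D3:**
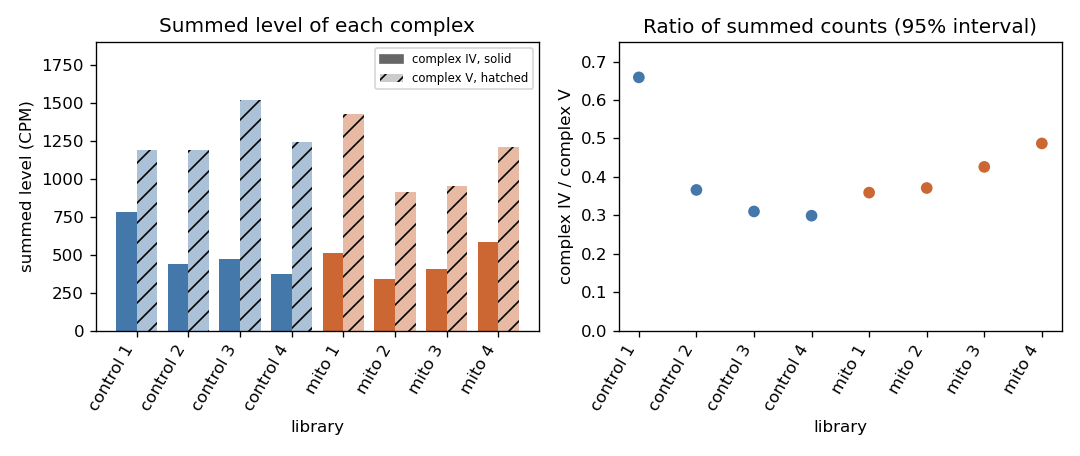
Left, summed level (CPM) of the 25 complex IV genes, solid, and the 15 complex V genes, hatched, in each library, controls in blue and mito-supplemented in orange. Right, ratio of complex IV to complex V counts in each library with exact 95% intervals, which are smaller than most points, running from 0.299 in control replicate 4 to 0.659 in control replicate 1.

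Per length, taken as the mean length of the transcripts linked to RefSeq, the order of levels over all libraries began with Atp5b at 272 CPM per kb, Cox6a1 at 161 and Atp5a1 at 103. The next were Atp5o at 92.6, Cox6c at 80.9, Atp5j at 74.5, Atp5e and Atp5h at 70 and Cox4i1 at 64.9 CPM per kb. The subunits of each enzyme were not at a common level, since Cox5b was at 11, Atp5d at 5.12, Atp5l at 1.88 and Cox7a2 at 1.06 CPM per kb. How reads that map to several places were counted is not given in the sources used here. Atp5g2, Atp5l, Cox16 and Cox7c shared most of their 75-base windows, the read length of the study, with transcripts of other genes, Cox7c with 50.4%, whereas Cox7a2, Atp5d and Cox5b shared 0%, 0% and 17.2%. Copies outside annotated transcripts were not searched.

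**Figure D4:**
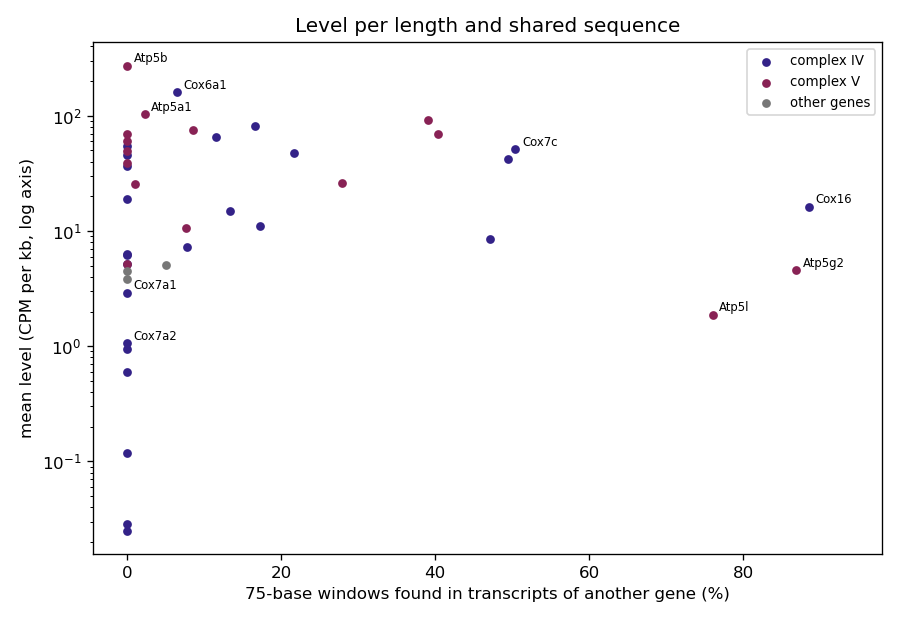
Mean level of each gene over the 8 libraries (CPM per kb, log axis) against the share of its 75-base windows that occur in transcripts of another gene (%), for complex IV, complex V and the other genes. Atp5l and Atp5g2 combine a low level with shares of 76.0% and 86.9%, and Cox7a2 is low with 0%.

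Of 21 further assembly factors, subunits and regulators of complex IV, 19 were tested, with a median log2 fold change of -0.29, and 2 were lower at an unadjusted p value under 0.05, Chchd8 and Tmem177, against 2.40% of all genes tested. Chchd8, listed under the older name of the assembly factor Coa4, was at 5.54, 7.14, 4.35 and 3.36 CPM in controls, against 1.02, 0.485, 1.36 and 1.25 CPM in the mito-supplemented libraries. All 4 mito-supplemented libraries were below all controls, with a log2 fold change of -2.30 (SE 0.72, edgeR quasi-likelihood adjusted p = 0.599, 0.161 from its likelihood ratio test and 0.0301 from DESeq2). It was the single gene of these lists that any test called, where DESeq2 called 1.03% of all genes. Tmem177, which stabilises a newly made core subunit of complex IV, was at 7.47, 5.79, 4.00 and 10.7 CPM in controls, against 2.52, 0.693, 3.13 and 0.765 CPM in the mito-supplemented libraries, again without overlap, with a log2 fold change of -1.96 (SE 0.75, edgeR quasi-likelihood adjusted p = 0.626 and 0.181 from DESeq2).

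Of 7 further complex V genes, which include the assembly factors Atpaf1 and Atpaf2 and the inhibitor Atpif1, all were tested, 0 passed an unadjusted p value of 0.05 in either direction, and the median log2 fold change was -0.05. Cycs, which encodes the cytochrome c that feeds complex IV, had a log2 fold change of -0.56 (SE 0.67), and the testis form Cyct did not pass the filter. For comparison, the median was -0.19 over the 35 complex I genes tested, 0.10 over 3 of complex II and -0.16 over 8 of complex III. Of the genes of complexes I to III, 1 was lower at an unadjusted p value under 0.05, against 2.40% of all genes tested. It was the complex I subunit Ndufb7, which was at 22.4, 21.5, 20.9 and 18.6 CPM in controls, against 14.1, 11.4, 9.26 and 7.51 CPM in the mito-supplemented libraries. The groups of Ndufb7 did not overlap, with a log2 fold change of -0.98 (SE 0.39, edgeR quasi-likelihood adjusted p = 0.626). Ndufab1, also of complex I, was at 5.46, 2.77, 3.09 and 3.95 CPM in controls, against 2.13, 1.66, 2.04 and 2.29 CPM in the mito-supplemented libraries. Its groups did not overlap either, with a log2 fold change of -0.91 (SE 0.66, edgeR quasi-likelihood adjusted p = 0.731), where 2.03% of all genes were lower without overlap.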

How the data were processed

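The authors trimmed the reads with Trim Galore 0.4.4, mapped them to GRCm38 with STAR 2.5.3a and assigned them to exons with featureCounts, as the paper and the submitters' processing notes state. The deposited values are raw counts per gene symbol for 8 libraries, and annotation release, strand setting and multi-mapping rule are not given in the sources used here. The counts were tested with edgeR 4.0.16 in R 4.3.3, by TMM scaling, the default expression filter and the quasi-likelihood test with Benjamini-Hochberg adjustment at 0.05. Alternatives were edgeR's likelihood ratio test, which the authors used, DESeq2 1.42.0 and its size factors, library size only, other filters, a replicate block, counts summed by label code prefix, a length and GC offset and leaving out each library. Single genes were compared by exact permutation over 70 splits. The scripts were tested on simulated counts. The log2 CPM values have a prior count of 2. Standard errors and 95% intervals were derived from the fold change and the F statistic. Coordinates and transcript lengths are from GENCODE M21, to which all 43 genes were matched, and 75-base windows were searched in all its transcripts on both strands.

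Values by library were given for genes with the largest change (3 in each complex), an unadjusted p value under 0.05, the catalytic subunits, isoform families and the highest level per length, and those named beyond this rule were chosen after their values were seen. The members and lists were chosen with earlier results of these data known. A further control library, which the authors left out as an outlier, was not analysed here.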

Additional observations from a re-analysis of the deposited data

Results flagged for a closer look

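Of 52 groups of 4 values examined, 7 had a library far from the rest of the group, where chance at 1 in 20 gives about 2.6. Of these, 4 are levels of genes near 0, for which a few counts in 1 library suffice.

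The level of Cox15 was 6.62 log2 CPM in mito-supplemented replicate 4, against 4.69 to 4.94 in the other 3 libraries of the group.

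Atp5l was at -3.03 log2 CPM in control replicate 4, which is 0 counts in the shallowest library, against 0.70 to 0.83 in the other controls. The limit for a count of 0 there, taken as 3 counts, is 0.592 CPM.

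Cox8c was at 1.07 log2 CPM in control replicate 4 and at -1.60 in mito-supplemented replicate 2, and had 0 counts in the other 6 libraries. Cox6a2 was at -1.95 log2 CPM in mito-supplemented replicate 3 and Cox8b at -2.29 in control replicate 1, with 0 counts in the other libraries of each group.

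The summed level of complex V genes was 1520 CPM in control replicate 3, against 1190 to 1240 CPM in the other controls.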

How the results depend on the processing

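Among the genes chosen by symbol, the count of complex IV and complex V genes past an adjusted p value of 0.05 was 0, both by edgeR's quasi-likelihood test and under each of 17 alternatives, DESeq2 included. This says little of stability, since apart from the likelihood ratio test, with 58 genes, and DESeq2, with 141, these fits called 0 of all genes. The count of complex IV genes at an unadjusted p value under 0.05 was 1, and became 2 with library size only, 0 with at least 1 CPM in 4 libraries, which removes Cox7a1 from the test, 0 with counts summed by label code prefix, and ran from 0 to 1 when libraries were left out singly. For complex V it was 0, and from 0 to 1 in those fits. The medians were -0.32 and -0.23 also when taken over structural subunits only, over all genes of the name rule or without genes that share most windows, which were added after the data were seen. All complex V genes chosen are subunits, so that for complex V the structural subunits are the same set and its median could not change. With each library left out, the median of complex IV ran from -0.48 to 0.05, that of complex V from -0.32 to -0.12 and their difference from -0.35 to 0.24.

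Of 286 log2 fold changes of a named gene under an alternative, 274 kept direction and side of the threshold and 12 changed sign, none past an adjusted p value of 0.05. Of 17 differences in mean log2 CPM under library size only, 7 changed sign. With library size only the log2 fold change was 0.17 for Atp5b, 0.03 for Cox6b1 and 0.09 for Cox8a, and the difference in mean log2 CPM was 0.22 for Atp5b, 0.32 for Cox6a1, 0.06 for Cox6b1, 0.06 for Cox7a2, 0.24 for Cox7a2l, 0.19 for Cox7b and 0.09 for Cox8a. With the length and GC offset, known for 97.4% of genes tested, Cox7b was 0.01 and Atp5g2 -0.02. With each library left out, Atp5b ran from -0.34 to 0.03, Cox6a1 from -0.35 to 0.17, Cox7a2l from -0.34 to 0.06, Cox7b from -0.43 to 0.03 and Atp5g2 from -0.07 to 0.45. In the same fits Cox7a2 ran from -0.58 to -0.04, Cox8a from -0.39 to -0.07, Cox6b1 from -0.58 to -0.04, Cox4i1 from -0.68 to -0.06 and Atp5l from -0.82 to -0.25, and with the replicate block Atp5l was -0.13. The log2 fold change of Cox7a1 ran from 2.77 to 4.55 over 15 alternatives, with adjusted p values from 0.218 to 0.971. What caused these shifts was not tested.

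Replicate numbers did not pair the samples, as the deviations of same-numbered samples correlated at -0.24, -0.19, -0.33 and 0.22. With the replicate block 0 genes were called, the medians were -0.21 for complex IV and -0.16 for complex V, and 1 complex IV gene was at an unadjusted p value under 0.05. Depth limits the low genes most, since control replicate 4 held 2694475 counts outside Rnr1 and Rnr2.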
